A study of Sus scrofa with 11 samples.

Results

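Genes whose products write, erase, read or reposition chromatin were compared between pigs that differed in the fibre make-up of their back muscle. Members were taken by symbol: every gene whose name begins with HDAC, SIRT, KDM, KMT, KAT and a digit, SETD, SMYD, SMARC, CHD and a digit, ARID, BRPF, BRD or PRDM. This gave 104 of the 25322 genes in the table, and 78 of them were kept because they reached at least 1 CPM (the usual per-library count unit, here scaled by edgeR's TMM factors) in at least 4 of the 11 pigs. By prefix, the kept genes comprised 27 writers (KMT, KAT, SETD, SMYD, PRDM), 21 erasers (HDAC, SIRT, KDM), 22 remodellers (SMARC, CHD, ARID) and 8 readers (BRD, BRPF).

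RNA was taken from the longissimus lumborum of 11 female pigs aged 23 weeks that were grouped by the histology of that muscle. The fibre1 group held 7 pigs in which type I fibres, which are slow and oxidative, exceeded 17% and type IIB fibres, which are fast and glycolytic, stayed below 70%. The fibre2B group held 4 pigs with less than 8% type I and more than 70% type IIB fibres. The labels name no treatment, breed and litter are not given in the sources used here, and each pig had 1 column of estimated counts. The groups are ranges of fibre share in whole muscle, not sorted fibres, and the labels do not give the share of each pig.

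Chromatin is DNA wound on histone proteins. Writers attach acetyl or methyl groups to histones, erasers take them off, readers bind the marked tail through bromodomains or similar folds, and remodellers spend ATP to slide or evict nucleosomes. In skeletal muscle the class IIa deacetylases HDAC4 and HDAC5 are known to hold back MEF2, a transcription factor of the slow-fibre programme, and SWI/SNF remodellers open muscle genes during differentiation. The prefixes do not map perfectly onto these roles: SETD3 methylates actin rather than a histone, many PRDM proteins are DNA-binding regulators, and ARID proteins include factors that belong to no remodelling complex.

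Total estimated counts ran from 14832736 to 36374829 per pig. Pigs 5 and 6 of fibre1 stood apart in the share of counts on the 10 top nuclear genes, 45.2% and 44.1%, where no other pig exceeded 36.8%. Muscle fibre markers dominated all samples: 10 of 15 listed markers had a row, none of these was at 0 in every pig, and their summed level was 133843 to 278339 CPM in fibre1 and 109414 to 145503 CPM in fibre2B. Markers of other cells were present in both groups. The 8 fibroblast markers with a row summed to 489 to 1001 CPM in fibre1 and 767 to 1460.5 CPM in fibre2B, and 2 of the 7 tested (DCN and LUM) were called higher in fibre2B. The 3 blood markers with a row summed to 137 to 467 CPM against 423 to 955 CPM, and HBB was called higher in fibre2B. VCAM1 of 6 satellite-cell markers, KCNJ8 of 8 smooth-muscle and pericyte markers and CFD of 5 adipocyte markers were also called higher in fibre2B, while edgeR called 0 of 10 muscle, 0 of 7 endothelial, 0 of 4 tested immune and 0 of 1 tested nerve markers. Of these, 6, 3, 1 and 0 had an unadjusted p under 0.05, and DESeq2 called 3, 3, 0 and 0. The part of these cells, and of the abundant transcripts of pigs 5 and 6, in the differences below was not tested. In bulk tissue, fewer cells of a type and less RNA per cell cannot be told apart.

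Most of the chromatin genes that differed were higher in the pigs with more type I fibres. With edgeR's quasi-likelihood test and a Benjamini-Hochberg adjusted p of 0.05 over all 11329 tested genes, 15 of the 78 members were called: 11 higher in fibre1 and 4 higher in fibre2B. That is 19.2% of members, against 9.01% of all tested genes (4.38% higher in fibre1 and 4.63% higher in fibre2B) and 9.90% of the tested genes that meet the same CPM minimum. The 11 were the writers SETD1A, SETD3, SMYD5 and KAT14, the erasers KDM4B, KDM2A and KDM8, the remodellers CHD3 and CHD4, and the readers BRPF1 and BRD3. The 4 were the eraser KDM6A and the remodellers CHD1, ARID2 and SMARCAD1. Log2 fold changes (fibre1 minus fibre2B) were positive in 53 of the 78 members with a median of 0.16, beside a median of 0.0073 over all tested genes.

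**Figure D1:**
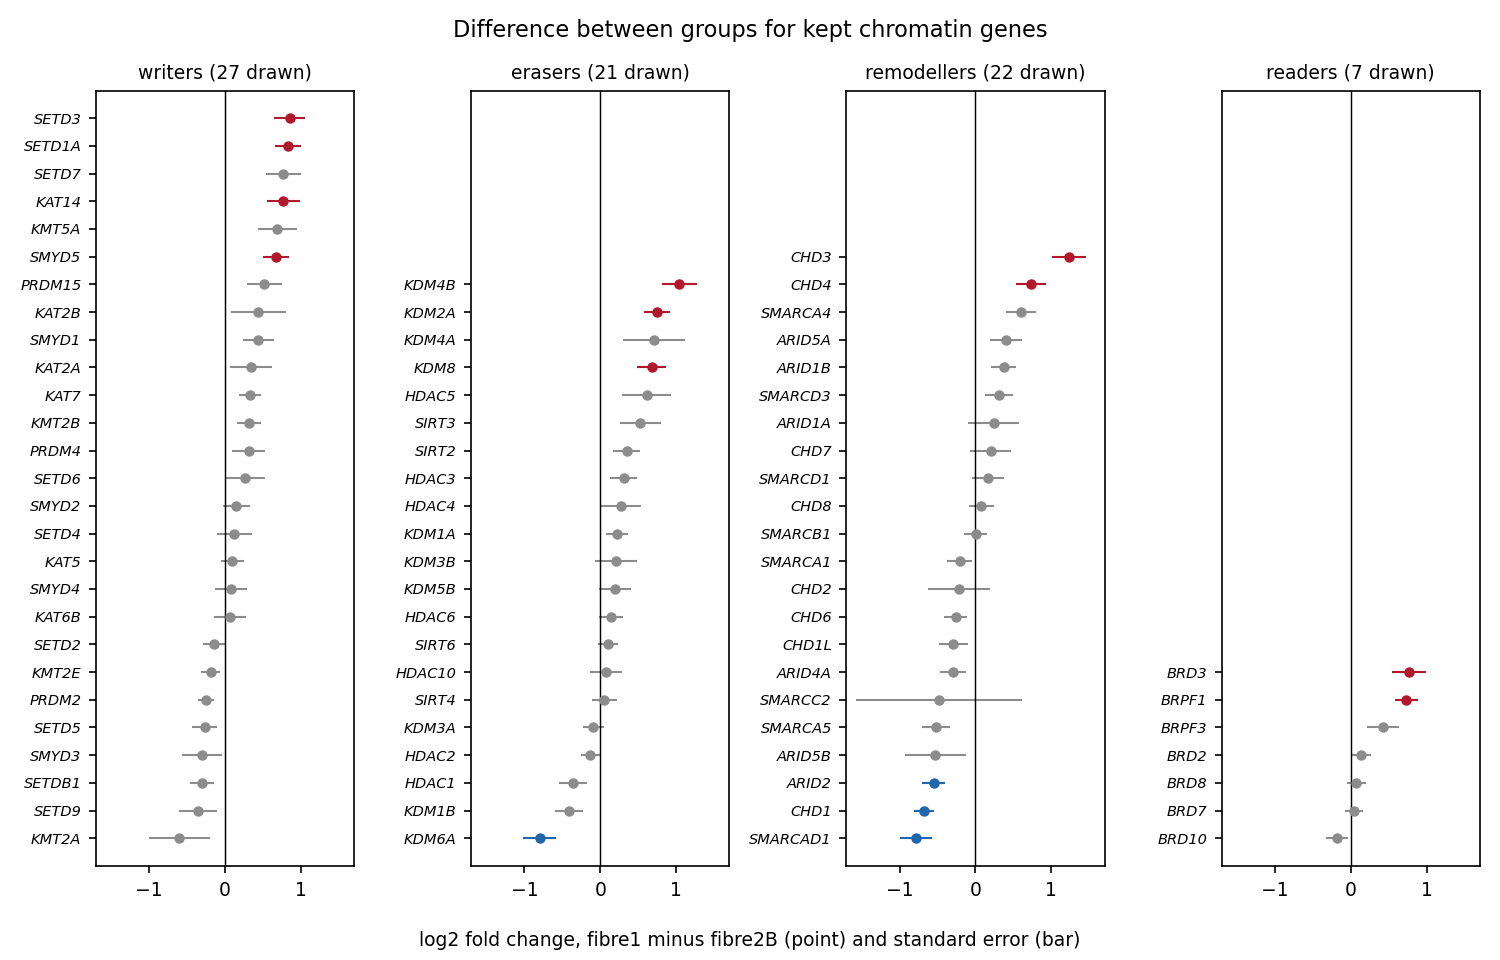
Log2 fold change of 77 of the 78 kept chromatin genes, fibre1 minus fibre2B, in 4 panels by class; points are edgeR estimates, bars are 1 standard error, coloured points passed the adjusted p of 0.05 (red higher in fibre1, blue higher in fibre2B) and grey points did not. Estimates ran from -0.80 to 1.23, and the called remodellers lie on both sides of 0.

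Each of these 15 edgeR calls at the adjusted threshold depended on single animals. Without fibre2B pig 14, edgeR called 0 members and 0% of 11538 tested genes, the smallest adjusted p of any gene being 0.057. In that fit 24 members and 2436 genes had an unadjusted p under 0.05. DESeq2 without that pig called 14 members, 13 of them among the 15, beside 6.73% of genes. Limma-voom with sample quality weights and without that pig called 16 members, all 15 among them, beside 9.49%. Leaving out fibre1 pigs 5 and 6 together also ended every call among the members, with 0.249% of all genes called. In all of these fits the 15 genes had the same direction as with all pigs and an unadjusted p under 0.05. Further pigs whose removal ended a call are named beside each gene.

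Among the writers, 4 of 27 rose in fibre1 and 0 fell, 14.8% beside the 9.01% of all tested genes. Their median log2 fold change was 0.27 with 19 positive. It was 0.16 without fibre1 pig 6 or fibre2B pig 14. With scaling by library size alone it was 0.065, beside a median of -0.19 over all tested genes in that setting. SETD1A, a catalytic subunit of a COMPASS complex that methylates histone H3 at active promoters, had 5.46, 7.30 and 8.95 CPM in its lowest, median and highest fibre1 pig. In fibre2B pigs 10, 11, 14 and 16 it had 4.08, 4.59, 4.03 and 3.39 CPM. Every fibre1 pig thus lay above every fibre2B pig. Group means were 7.15 ± 1.15 (SD, n = 7) and 4.02 ± 0.495 CPM (SD, n = 4), a log2 difference of 0.83 ± 0.17 (SE; edgeR adjusted p = 0.018). The call was also lost without fibre2B pig 16, and the adjusted p over both losses was 0.05048 to 0.064.

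SETD3, the actin histidine methyltransferase, ran from 9.58 through a median of 16.7 to 19.0 CPM in fibre1. Its fibre2B values were 9.22, 10.23, 7.10 and 7.55 CPM in pigs 10, 11, 14 and 16. Only fibre1 pig 17 reached down into the fibre2B range, below pig 11. The means of 15.3 ± 3.62 and 8.52 ± 1.46 CPM (SD, n = 7 and 4) differed by 0.85 ± 0.20 on the log2 scale (edgeR adjusted p = 0.028). Removing fibre1 pig 1 or any of fibre2B pigs 10, 14 and 16 moved the adjusted p to between 0.05023 and 0.090.

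SMYD5, a SET and MYND domain methyltransferase, measured 14.1, 18.4 and 23.3 CPM in the lowest, median and highest fibre1 pig. The fibre2B pigs had 9.31, 14.6, 11.9 and 11.3 CPM in the same order as above. The overlap came from fibre2B pig 11, which lay above fibre1 pig 12. The log2 difference was 0.67 ± 0.17 (means 18.7 ± 3.43 and 11.8 ± 2.17 CPM, SD; edgeR adjusted p = 0.035), and it lost its call when any of fibre1 pigs 1, 2, 5 and 6 or fibre2B pigs 10, 14 and 16 was left out (0.057 to 0.094).

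KAT14, a subunit of the ATAC acetyltransferase complex, was the most even of the called writers in fibre2B, at 12.2, 11.5, 12.3 and 12.7 CPM. Fibre1 pigs spread from 12.8 through 20.02 to 27.2 CPM, with pigs 1, 5 and 6 at 25.9, 27.2 and 27.04 and pigs 7 and 12 at 12.8 and 13.4. The groups did not overlap, but only just, at 12.8 against 12.7 CPM. The log2 difference of 0.77 ± 0.22 passed at an edgeR adjusted p of 0.044 and stayed called in 2 of the 11 fits that left out 1 pig, those without fibre1 pig 7 or 12. The adjusted p was 0.05020 to 0.12 in the others.

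The other writers named for their known part in muscle or acetylation did not pass in the main edgeR fit. That fit used TMM factors, the group term only and all 11 pigs. SETD7, a lysine methyltransferase, lay just outside: 14.2, 21.2 and 37.0 CPM in the lowest, median and highest fibre1 pig, and 13.6, 12.2, 11.6 and 15.3 CPM in fibre2B, with a log2 difference of 0.77 ± 0.23 and an edgeR adjusted p of 0.0517. It passed in 5 of the 15 fits with other settings, among them DESeq2 (0.013) and edgeR with RLE factors (0.0478). SMYD1, which is needed for sarcomere assembly, differed by 0.44 ± 0.20 (adjusted p = 0.16). The acetyltransferases KAT2A and KAT2B differed by 0.34 ± 0.28 and 0.44 ± 0.36 (adjusted p = 0.44 and 0.45). KAT2B varied widely within fibre1, with 18.3 and 18.7 CPM in pigs 1 and 12, 12.4 in pig 7, and 5.51 to 7.28 in the other 4. PRDM2, a SET-domain zinc finger protein chosen after its values were seen, was the member with the smallest spread in fibre1 (SD of log2 CPM 0.084): 10.9 to 12.9 CPM in fibre1 lay wholly below 13.3 to 14.4 CPM in fibre2B, yet the log2 difference of -0.25 ± 0.11 had an edgeR adjusted p of 0.16.

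**Figure D2:**
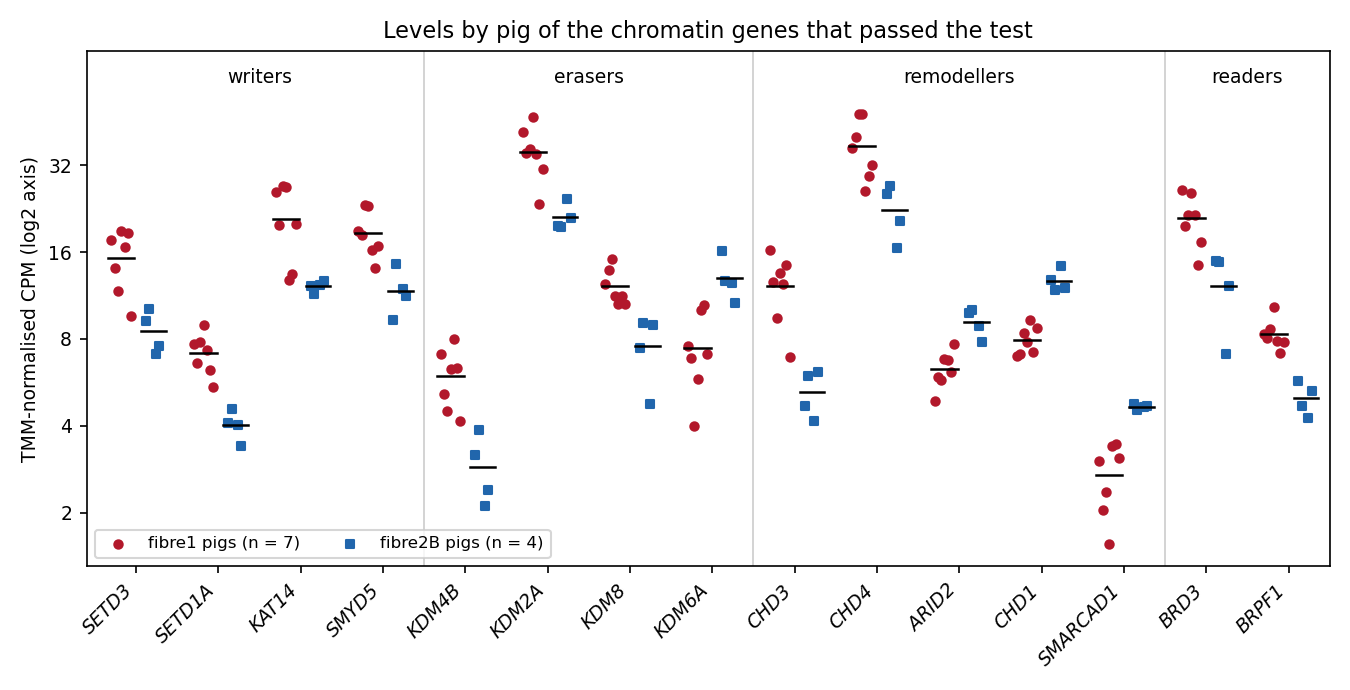
TMM-normalised CPM on a log2 axis for the 15 called chromatin genes, grouped by class; red circles are the 7 fibre1 pigs, blue squares the 4 fibre2B pigs and black lines the group means. CHD3, for example, spans 6.93 to 16.3 CPM in fibre1 and 4.14 to 6.15 CPM in fibre2B, while CHD1 spans 6.99 to 9.28 and 11.8 to 14.3 CPM.

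Of 21 erasers 4 were called, 19.0% beside the 9.01% of all tested genes, and all 4 carried the lysine demethylase prefix KDM. Of the 10 genes with that prefix, 3 rose and 1 fell in fibre1. In such short lists a count of 0 is near the share over all genes: 0 of 7 histone deacetylases (HDAC) and 0 of 4 sirtuins passed the edgeR test, with 0 of both at an unadjusted p under 0.05 and 0 of both called by DESeq2 or limma-voom. Whether the families differ from each other was not tested. Over all 21 erasers the median log2 fold change was 0.21, with 16 positive. It was 0.32 without fibre2B pig 11. With library size alone it was 0.021, beside -0.19 over all tested genes.

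KDM4B, a demethylase that takes methyl groups from lysine on histone H3, showed the largest change of the 21 kept erasers. It had 4.17, 6.30 and 7.99 CPM in the lowest, median and highest fibre1 pig and 3.16, 3.86, 2.10 and 2.40 CPM in fibre2B pigs 10, 11, 14 and 16. No fibre1 pig fell to the fibre2B range, and the means of 5.93 ± 1.40 and 2.88 ± 0.791 CPM (SD, n = 7 and 4) corresponded to a 2.05-fold difference (log2 1.04 ± 0.23, edgeR adjusted p = 0.022). Besides pig 14, fibre2B pig 16 was needed for the call (0.057 to 0.079 without either).

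KDM2A, which binds unmethylated CpG islands, had 23.5, 35.4 and 47.0 CPM in the lowest, median and highest fibre1 pig. In fibre2B it had 19.7, 19.6, 24.4 and 21.0 CPM. Here fibre1 pig 12 lay below fibre2B pig 14 and the other 6 fibre1 pigs lay above all fibre2B pigs. The log2 difference was 0.75 ± 0.17 (edgeR adjusted p = 0.024), and removing fibre1 pig 2 or any of fibre2B pigs 10, 14 and 16 ended the call (0.05005 to 0.065).

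KDM8, an oxygenase of the JmjC family, was at 10.6, 11.3 and 15.1 CPM in the lowest, median and highest fibre1 pig and at 7.43, 9.10, 4.77 and 8.96 CPM in fibre2B. The groups did not overlap, and pig 14 was the lowest of all. The log2 difference of 0.68 ± 0.19 (edgeR adjusted p = 0.039) became 0.53 without pig 14. The adjusted p rose to between 0.059 and 0.11 when any of fibre1 pigs 1, 2, 5 and 6 or fibre2B pigs 10, 14 and 16 was left out.

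KDM6A went the other way. This gene, also known as UTX, encodes an X-linked demethylase that removes the Polycomb mark from histone H3. It had 3.99, 7.09 and 10.5 CPM in the lowest, median and highest fibre1 pig against 16.2, 12.7, 12.5 and 10.7 CPM in fibre2B. The highest fibre1 pig, pig 12, came within 10.5 against 10.7 CPM of fibre2B pig 16 without overlap. Means were 7.43 ± 2.30 and 13.0 ± 2.30 CPM (SD, n = 7 and 4), 1.75-fold higher in fibre2B (log2 -0.80 ± 0.22, edgeR adjusted p = 0.043). Its call remained only without fibre1 pig 7 or 12, and in the other 9 fits that left out 1 pig the adjusted p was 0.0545 to 0.12.

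The demethylases that rose and fell can be set against each other within a pig, which removes the scaling between libraries. Ratios of counts are not compared between genes here, only the same ratio between pigs. The KDM2A to KDM6A ratio was 2.24 to 9.16 in fibre1 (median 5.16) and 1.21, 1.55, 1.95 and 1.96 in the fibre2B pigs. For KDM4B to KDM6A it was 0.588 to 1.13 in fibre1 and 0.167 to 0.305 in fibre2B. The pairs were chosen after the values were seen, so their separation is a description. For KDM4B and KDM6A, whose groups did not overlap and lay in opposite directions, the ratio could not have come out otherwise.

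The deacetylases linked to fibre type were not called, and their groups overlapped. HDAC5 had 41.5, 88.9, 101, 73.1, 45.1, 27.8 and 103 CPM in fibre1 pigs 1, 2, 5, 6, 7, 12 and 17. The fibre2B pigs had 47.6, 51.4, 45.2 and 35.9 CPM, inside the fibre1 range. The log2 difference was 0.61 ± 0.32 (edgeR adjusted p = 0.23). HDAC4 spanned 6.31 to 14.5 CPM in the fibre1 pigs and 5.42 to 14.3 CPM in the others, a difference of 0.27 ± 0.27 (adjusted p = 0.54). For HDAC4 it was 0.61 without fibre2B pig 11 and 0.10 without fibre2B pig 16. With library size alone it was 0.021, beside a median of -0.19 over all tested genes. The class I enzymes HDAC1, HDAC2 and HDAC3, catalytic subunits of corepressor complexes, differed by -0.36, -0.13 and 0.31 (adjusted p = 0.19, 0.52 and 0.27).

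SIRT3, the main mitochondrial deacetylase, had 7.85 to 17.4 CPM in fibre1 and 4.37 to 11.5 CPM in fibre2B, a log2 difference of 0.53 ± 0.27 (edgeR adjusted p = 0.21). The largely cytoplasmic SIRT2 differed by 0.35 ± 0.18 (adjusted p = 0.21), and KDM1A, the flavin-dependent demethylase LSD1, by 0.22 ± 0.15 (adjusted p = 0.35). All of these groups overlapped.

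The remodellers changed in both directions. Of 22, 2 rose and 3 fell in fibre1, 22.7% beside the 9.01% of all tested genes. Log2 fold changes were positive in 11 and negative in 11, and the median of -0.10 turned to 0.075 without fibre2B pig 14. With library size alone it was -0.28, beside -0.19 over all tested genes. CHD3 and CHD4 are alternative ATPases of NuRD, a complex that joins remodelling with histone deacetylation, and both rose. CHD1, which remodels nucleosomes over transcribed genes, ARID2, the subunit that marks the PBAF form of SWI/SNF, and SMARCAD1, a SWI/SNF-like ATPase that acts in replication and repair, were all lower in fibre1.

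CHD3 had the largest fold change of the 78 kept members. Its values were 16.3, 12.6, 9.44, 13.6, 12.4, 14.5 and 6.93 CPM in fibre1 pigs 1, 2, 5, 6, 7, 12 and 17, and 4.68, 5.94, 4.14 and 6.15 CPM in the fibre2B pigs. The lowest fibre1 pig, pig 17, was still above all fibre2B pigs. Means of 12.3 ± 3.16 and 5.23 ± 0.971 CPM (SD, n = 7 and 4) gave a 2.35-fold difference (log2 1.23 ± 0.22, edgeR adjusted p = 0.016). Among the single pigs only fibre2B pig 14 ended the call when left out (adjusted p = 0.059).

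CHD4 had 26.1, 36.9 and 48.4 CPM in its lowest, median and highest fibre1 pig, the highest 2 being pigs 5 and 6. In fibre2B it had 25.5, 27.1, 16.6 and 20.6 CPM. Fibre2B pig 11 lay above fibre1 pig 7, so the groups overlapped. The log2 difference of 0.73 ± 0.20 (edgeR adjusted p = 0.040) failed the threshold when any of fibre1 pigs 1, 2, 5 and 6 or fibre2B pigs 10, 14 and 16 was removed (0.064 to 0.13).

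CHD1 had the smallest adjusted p of the 4 genes higher in fibre2B, and both of its groups were tight. It had 6.99, 7.09, 8.37, 7.80, 9.28, 7.21 and 8.71 CPM in fibre1 pigs 1, 2, 5, 6, 7, 12 and 17, and 12.8, 11.8, 14.3 and 11.98 CPM in the fibre2B pigs. A wide gap separated the highest fibre1 pig at 9.28 from the lowest fibre2B pig at 11.8 CPM. Means were 7.92 ± 0.890 and 12.7 ± 1.14 CPM (SD, n = 7 and 4), 1.61-fold higher in fibre2B (log2 -0.68 ± 0.13, edgeR adjusted p = 0.016). It was the single member still called when counts were scaled by library size alone, a setting in which the median of all genes shifted to -0.19 and 1.39% of genes passed.

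ARID2 had 4.89, 6.15 and 7.68 CPM in the lowest, median and highest fibre1 pig and 9.86, 10.1, 8.91 and 7.81 CPM in fibre2B. SMARCAD1 had 1.56, 3.03 and 3.45 CPM in fibre1 and a narrow 4.77, 4.55, 4.65 and 4.69 CPM in fibre2B. Neither gene's groups overlapped, although fibre1 pig 17 came close to fibre2B pig 16 for ARID2. The log2 differences were -0.55 ± 0.15 and -0.78 ± 0.21 (edgeR adjusted p = 0.038 and 0.039). Both calls ended when any 1 of fibre1 pigs 1, 2, 5 and 6 or of the 4 fibre2B pigs was removed (0.0528 to 0.096 for ARID2, 0.0522 to 0.10 for SMARCAD1).

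Within single pigs the CHD3 to CHD1 ratio separated the groups. It was 2.34, 1.78, 1.13, 1.75, 1.34, 2.01 and 0.795 in fibre1 pigs 1, 2, 5, 6, 7, 12 and 17 and 0.366, 0.504, 0.290 and 0.513 in the fibre2B pigs. The CHD4 to SMARCAD1 ratio was 7.69 to 31.0 in fibre1 and 3.56 to 5.95 in fibre2B. These pairs too were chosen after their values were seen. For CHD3 and CHD1, whose groups did not overlap and lay in opposite directions, the separation of the ratio was fixed by those values.

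Apart from ARID2, the subunits of SWI/SNF named here were not called in the main edgeR fit (TMM factors, group term only, all 11 pigs). SMARCA4, its BRG1 ATPase, had 12.3, 17.6 and 23.7 CPM in the lowest, median and highest fibre1 pig and 10.5 to 13.7 CPM in fibre2B, a log2 difference of 0.60 ± 0.20 (edgeR adjusted p = 0.074). It was called by DESeq2 (0.041), by limma-voom with quality weights (0.037) and by edgeR with 1 surrogate variable (0.024). SMARCD3, the muscle-enriched BAF60C subunit, had 121 to 254 CPM in fibre1 and 133 to 168 CPM in fibre2B (0.31 ± 0.18, adjusted p = 0.28). ARID1A, the subunit that marks the BAF form, differed by 0.24 ± 0.34 (adjusted p = 0.67). SMARCA5, the ISWI ATPase, was lower in fibre1 by estimate at -0.52 ± 0.18 (adjusted p = 0.085). SMARCC2, a scaffold subunit, had estimated counts of 0 in fibre1 pigs 1, 2 and 6 but 14.99 CPM in fibre1 pig 17 and 11.7 CPM in fibre2B pig 14, so that its difference of -0.48 ± 1.09 turned to 0.44 without pig 14. With limma-voom the SMARCC2 difference was -2.79, and with quality weights -3.50 (adjusted p = 0.19 and 0.080). ARID5B, a DNA-binding ARID protein, was likewise highest in pig 14 at 27.02 CPM, and its -0.53 ± 0.40 became 0.011 without that pig.

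Among the 8 readers, 2 rose in fibre1 (25.0%, beside 9.01% of all tested genes), 7 log2 fold changes were positive and the median was 0.28. BRPF1, the scaffold that holds KAT6 acetyltransferases to chromatin, had 7.13, 8.06 and 10.3 CPM in the lowest, median and highest fibre1 pig and 5.73, 4.68, 4.26 and 5.26 CPM in fibre2B. Its groups did not overlap and both were tight, with means of 8.31 ± 0.994 and 4.98 ± 0.647 CPM (SD, n = 7 and 4). The log2 difference was 0.73 ± 0.15 (edgeR adjusted p = 0.018), and of the single pigs only fibre2B pig 14 was needed for the call (0.069 without it).

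BRD3 belongs to the BET family of bromodomain proteins, which read acetylated histones. It had 14.5, 21.5 and 26.4 CPM in the lowest, median and highest fibre1 pig. In fibre2B it had 14.9, 14.8, 7.10 and 12.2 CPM, and fibre1 pig 12 lay inside that range. The difference of 0.77 ± 0.22 (edgeR adjusted p = 0.043) was no longer called after removal of any of fibre1 pigs 1, 2, 5, 6 and 7 or fibre2B pigs 10, 14 and 16 (0.05012 to 0.12). Its relative BRD2 did not pass, with 77.0 to 100.4 CPM in fibre1 and 71.0 to 94.8 CPM in fibre2B (0.14 ± 0.13, edgeR adjusted p = 0.49).

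Of the 15 called members, 10 had groups that did not overlap, and PRDM2 brought the count over all members to 11. Of these, 6 were higher in fibre1 and 5 in fibre2B. Over all tested genes, 3.40% were non-overlapping with fibre1 higher and 4.15% with fibre2B higher. Gene spans were checked in RefSeq, which is of another genome build than the counts and has no entry under the symbol BRD3. Those of CHD3, CHD4, KAT14 and KDM4B overlap another gene there, KAT14 with PET117. These are 4 of the 15 called members, beside 23 of the 78 kept members. Whether counting used strand is not given in the sources used here, so reads of such neighbours may not be told apart.

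The class medians show how each pig contributes. For every gene the midpoint between the 2 group means of log2 CPM was subtracted, and the median over a class was taken in each pig. Writers lay between -0.028 and 0.14 in fibre1 and between -0.24 and -0.0081 in fibre2B. Erasers lay between -0.049 and 0.27 and between -0.16 and -0.032, with pigs 5 and 6 highest at 0.24 and 0.27. Readers lay between -0.12 and 0.37 and between -0.22 and -0.064. For these 3 classes fibre1 pig 12 was the lowest of its group and lay within the fibre2B range, as did pig 17 for writers. Remodellers showed no such order: -0.26 to 0.12 in fibre1 and -0.12 to 0.20 in fibre2B. The pooled SD between pigs was 0.077 for writers, 0.098 for erasers and 0.13 for both remodellers and readers.

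**Figure D3:**
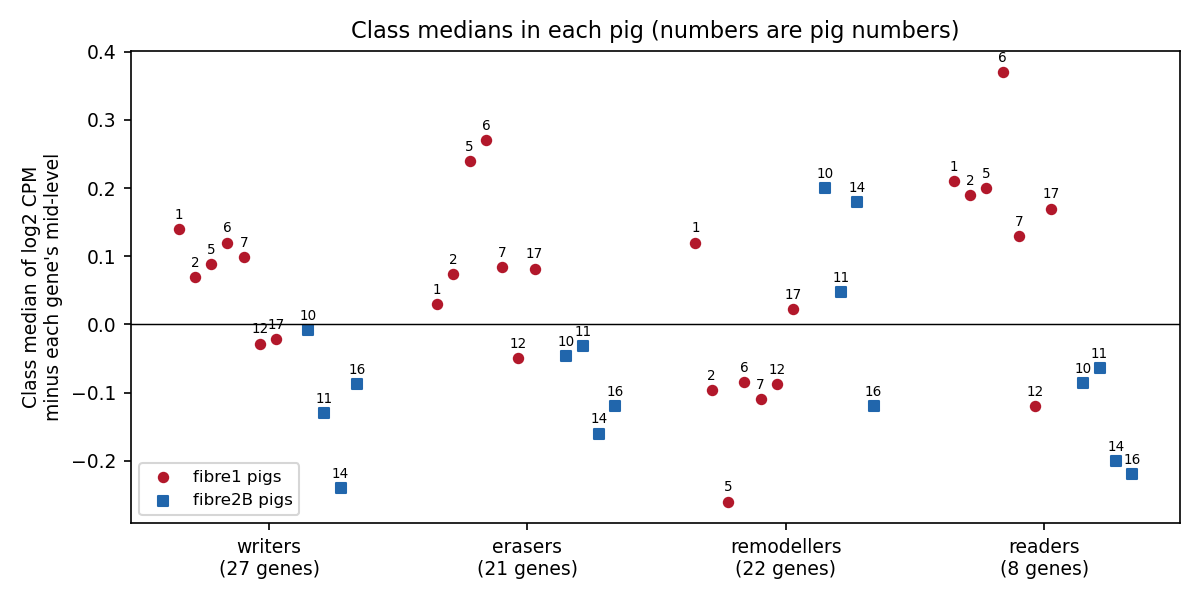
Median over the genes of each class of log2 CPM minus the gene's midpoint between groups, in each pig; red circles are fibre1 pigs, blue squares fibre2B pigs, and the numbers are pig numbers. Most fibre1 pigs lie above the fibre2B pigs for writers, erasers and readers, pig 12 (and pig 17 for writers) being an exception, and the groups are mixed for remodellers.

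Spread among pigs was similar in both groups: the median SD of log2 CPM over the 78 genes was 0.29 in fibre1 and 0.25 in fibre2B. The most variable members in fibre1 were SMARCC2 (4.78), CHD2 (0.86), KMT2A (0.85), KAT2B (0.75), HDAC5 (0.74) and ARID5B (0.70). None of them was called. Before taking logs 0.01 CPM was added, so the size of the SMARCC2 value depends on that constant through fibre1 pigs 1, 2 and 6 at 0. CHD2 and KMT2A reached down to 0.824 and 0.231 CPM in fibre1, where counts are few.

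The remaining 26 of the 104 members did not reach the CPM minimum. BRDT, PRDM12, PRDM13 and PRDM14 were at 0 in all 11 pigs. Of the 26, 6 were abundant enough to be tested and edgeR called 0, with 1 at an unadjusted p under 0.05; DESeq2 called 0 and limma-voom 1, KDM6B. KMT2A, a methyltransferase of the MLL family, lay just inside the minimum, with 1 fibre1 pig and 3 fibre2B pigs at 1 CPM or more (0.231 to 1.31 and 0.780 to 1.15 CPM). PRDM1, KDM6B and HDAC11 lay just outside with 2 pigs each. KDM6B, a demethylase of the Polycomb mark, had 0.576 to 1.14 CPM in fibre1 and 0 to 0.694 CPM in fibre2B, a fitted log2 difference of 1.55 ± 0.68 (edgeR adjusted p = 0.15). SIRT1, the nuclear sirtuin, had 0.190 to 0.849 CPM in fibre1 and 0.397 to 1.19 CPM in fibre2B (edgeR adjusted p = 0.23). HDAC9 reached at most 1.03 CPM, and PRDM16, a regulator of brown fat, at most 0.104 CPM. For 20 further symbols of these families, including KMT2D and SMARCA2, no row carried the symbol, and they were not analysed here.

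Genes that work in the same complexes under other names were examined as a second list of 142, of which 101 were tested. Of these, 10 rose and 3 fell in fibre1 (12.9%, against the 9.01% of all tested genes), with a median log2 fold change of 0.13. By subgroup, edgeR called 2 of 17 acetyl- and methyltransferases, 3 of 22 writer-complex subunits, 2 of 15 corepressor subunits, 2 of 5 demethylases, 2 of 19 remodeller genes, 2 of 19 readers and Polycomb genes, and 0 of 4 DNA methylation genes, among which 1 had an unadjusted p under 0.05 and DESeq2 called 1. Without fibre2B pig 14 edgeR called none of the 13.

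DOT1L, the methyltransferase of the histone H3 globular domain, had the largest called change. It had 6.61, 9.14 and 13.4 CPM in the lowest, median and highest fibre1 pig and 3.26, 4.16, 2.21 and 4.53 CPM in fibre2B, without overlap (log2 1.47 ± 0.25, edgeR adjusted p = 0.016). NSD2, another histone H3 methyltransferase, had 3.86 to 6.60 against 1.48 to 2.95 CPM (1.16 ± 0.22, adjusted p = 0.016). These are writers outside the chosen prefixes, and both moved the same way as SETD1A. Both were named for their small p. Of the 17 tested enzymes in their subgroup, 11 log2 fold changes were positive and 6 negative. Of the 22 writer-complex subunits, 10 were positive and 12 negative, with a median of -0.012.

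NuRD partners of CHD3 and CHD4 were partly among the called genes. MBD3, the methyl-binding-domain subunit, had 156, 152, 116, 159.9, 126, 103 and 109 CPM in fibre1 pigs 1, 2, 5, 6, 7, 12 and 17 and 67.5, 73.3, 62.4 and 70.0 CPM in fibre2B (log2 0.94 ± 0.15, edgeR adjusted p = 0.016). GATAD2A, which bridges the deacetylase and remodeller parts of the complex, had 19.7 to 32.9 against 13.0 to 17.0 CPM (0.73 ± 0.15, adjusted p = 0.019). Neither gene's groups overlapped. MTA2, MBD2 and RBBP7 differed by 0.27, -0.18 and -0.36 (adjusted p = 0.19, 0.66 and 0.10), so 2 of the 5 tested NuRD partners passed, where 9.01% of all tested genes did. This subset was drawn after the values were seen, and nothing is read from its count. The subset left out the deacetylase subunits HDAC1 and HDAC2. These were not called and differed by -0.36 and -0.13 (edgeR adjusted p = 0.19 and 0.52).

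Other partners that rose were the demethylase PHF2 (0.99 ± 0.21, edgeR adjusted p = 0.019), the acetyltransferase-complex subunit TADA2B (1.003 ± 0.27, 0.038), HCFC1, a cofactor of COMPASS complexes (0.86 ± 0.23, 0.039), the histone-exchange ATPase SRCAP (0.57 ± 0.15, 0.034) and the Polycomb subunits PHC1 (0.85 ± 0.25, 0.0491) and PHC2 (0.64 ± 0.17, 0.039). The 3 that fell were JMJD1C, a demethylase relative of the KDM3 family, BAZ1A, a partner of SMARCA5, and ING3, a subunit of an acetyltransferase complex. JMJD1C had 8.95 to 15.8 CPM in fibre1 and 22.3, 18.6, 41.9 and 19.6 CPM in fibre2B (log2 -1.0 ± 0.23, adjusted p = 0.024), and without fibre2B pig 14 the difference was -0.65. BAZ1A and ING3 differed by -0.69 ± 0.19 and -0.62 ± 0.17 (adjusted p = 0.039 and 0.042). Of the 11 fits that left out 1 pig, PHC1 and ING3 lost their calls in 9, SRCAP and BAZ1A in 8, TADA2B and HCFC1 in 7 and PHC2 in 6. PHF2 lost it in 2 and JMJD1C in 1.

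**Figure D4:**
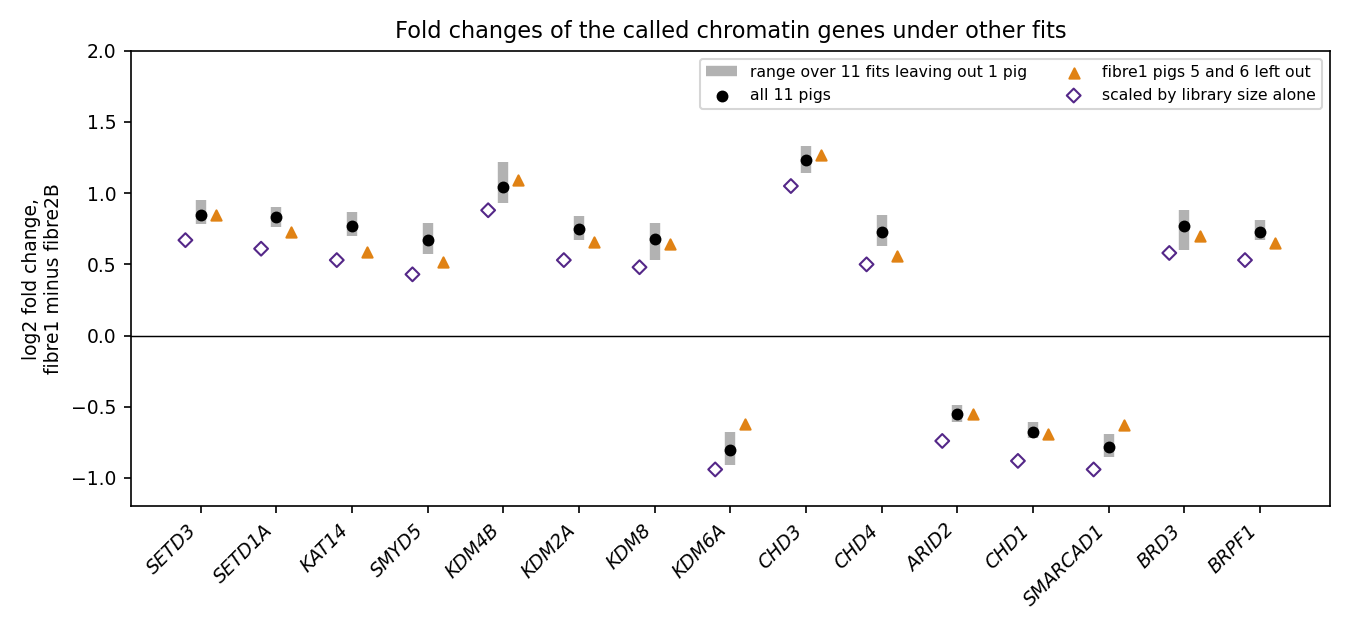
Log2 fold change of the 15 called members with all 11 pigs (black), with fibre1 pigs 5 and 6 left out (orange triangles) and with scaling by library size alone (open diamonds); grey bars span the 11 fits that each left out 1 pig. All points keep the sign of the fit with 11 pigs. Scaling by library size moves all of them downward, and moves the median of all tested genes from 0.0073 to -0.19.

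The sizes of the differences moved less than their calls. CHD3 ranged from 1.14 to 1.33 over the 11 fits that left out 1 pig, and CHD1 from -0.72 to -0.61. KDM8 ranged from 0.53 to 0.79, and KDM6A ranged from -0.91 to -0.68. Other tests called more or fewer genes. Limma-voom without weights called 14 members beside 7.62% of all genes, and edgeR with robust dispersion 16 beside 8.99%, against 15 beside 9.01% in the fit reported here. DESeq2 called 18 members beside 15.4% of all genes, limma-voom with quality weights 17 beside 15.4%, and edgeR with 1 surrogate variable 17 beside 14.4%. Adding the top-10 share of counts as a covariate left 8 members beside 4.06% of genes: BRPF1, CHD1, CHD3, KDM2A, KDM4B, SETD1A and SETD3 of the 15, and SETD7 in addition.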

How the data were processed

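TruSeq libraries from 300 ng of total RNA per pig were sequenced for 50 single-end cycles in 5 technical repetitions, per the labels' protocols and the series design. The values the authors deposited are expected counts per gene (estimated read numbers, not normalized), with 1 column per pig. The submitters' processing notes name Sscrofa10.2 as the build and, without roles, RSEM, STAR, FastQC, CASAVA 1.8.2, DESeq2 and edgeR. Symbols came from a table of Ensembl IDs (11804 of 25322 rows; rows without one held 20.68% of counts). Counts were rounded and tested with edgeR 4.0.16 in R 4.3.3 (TMM factors, filterByExpr, quasi-likelihood F test, group term only, Benjamini-Hochberg adjustment). An SE is the absolute log2 fold change over the root of its F statistic. The procedure was tested on simulated data. Every sample is a separate pig, per the labels.

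The members and the lists were chosen with earlier results of these data known. Named were called members (at most 6 per class and direction, by p), the largest fold change per class, a set list (HDAC4, HDAC5, HDAC9, SIRT1, SIRT3, SMYD1, SETD3, SETD7, KAT2A, KAT2B, KDM1A, KMT2D, SMARCA2, SMARCA4, SMARCD3, ARID1A, PRDM16) and, per partner subgroup, the 2 called genes with the smallest p in each direction. PRDM2, HDAC1, HDAC2, HDAC3, SIRT2, SMARCA5, SMARCC2, ARID5B, KMT2A, CHD2, BRD2, PRDM1, KDM6B, HDAC11, MTA2, MBD2 and RBBP7 were added after their values were seen. Alternatives used other scaling factors (RLE, upper quartile, library size), filters, DESeq2 1.42.0, limma-voom (limma 3.58.1), robust dispersion, 1 surrogate variable (sva 3.50.0), abundant genes left out or as a covariate, and pigs left out. The isoform table was not used, since it pairs no isoform with a gene. A gene that the rule names is not reported here. Gene lengths were not used, so levels are not compared between genes.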

Additional observations from a re-analysis of the deposited data

Results flagged for a closer look

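In 114 groups of pigs examined for an outlying value, 2 held a pig far from its group, and chance alone gives about 1 in 20 groups. SMARCC2 was at 15 CPM in fibre1 pig 17, with the next fibre1 pig at 3.93 CPM. JMJD1C was at 41.9 CPM in fibre2B pig 14, with the next fibre2B pig at 22.3 CPM. The other 3 fibre2B pigs still lay above all fibre1 pigs for JMJD1C. The 114 groups did not cover every member and partner gene, so outlying values in genes not examined are not listed.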

How the results depend on the processing

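The 15 called members kept their direction in every alternative run, and 266 of their 390 alternative fits stayed called. Leaving out each pig gave 0 to 1548 called genes, 0 to 14 members higher in fibre1 and 0 to 5 higher in fibre2B, 0 to 13 partner genes higher and 0 to 7 lower in fibre1, and class medians of 0.16 to 0.30 (writers), 0.15 to 0.32 (erasers), -0.13 to 0.075 (remodellers) and 0.23 to 0.33 (readers). Scaling by library size alone called 157 genes, 0 members higher and 1 lower in fibre1, and 1 and 0 partner genes. Class medians were then 0.065, 0.021, -0.28 and 0.068, beside -0.19 over all tested genes, with KDM1A at -0.0071 and BRD2 at -0.059. Of the calls with library size alone, 33.8% were higher in fibre1, against 48.6% with TMM. Without a filter 10 members (12.8%) were called, 8 higher and 2 lower in fibre1, beside 4.01% of 18814 genes. In that fit 1 partner was called lower in fibre1. DESeq2, quality weights and the surrogate variable called 1740, 1748 and 1628 genes and 8, 9 and 6 partners lower in fibre1, and quality weights gave a writer median of 0.18. With the abundant-gene covariate 460 genes, 7 members higher and 1 lower, and 5 and 1 partners were called, with a writer median of 0.18. Without fibre1 pigs 5 and 6 it was 28 genes, 0 and 0 members, and 1 and 0 partners. Over the fits leaving out 1 pig SMARCC2 ranged from -1.65 to 0.44 and ARID5B from -0.77 to 0.011, the positive values being those without fibre2B pig 14. With DESeq2 and without that pig they were 0.46 and 0.015, the writer and remodeller medians 0.17 and 0.080, and 1 partner was lower. With quality weights and without it the medians were 0.11 and 0.061, KAT2B -0.014 and ARID5B 0.13. The cause of these changes was not tested. No paired analysis was possible because no replicate number occurs in both groups. Corrections for GC content or length, and membership by RefSeq symbol, were not run for want of matching annotation used here. With 4 pigs in fibre2B and totals of 14832736 to 36374829 counts, differences in members near 1 CPM were poorly measured.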
